A study of Homo sapiens with 24 samples.

Results

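Resveratrol alone was compared with the untreated control in 686Tu (MDA686TU), a malignant squamous carcinoma line of the head and neck. The members are the 12 libraries labelled with resveratrol and no EGCG or with neither agent, out of 24 libraries in the series. The 6 resveratrol libraries came from cells given 15 µM resveratrol for 24 h, and the 6 untreated libraries from cells given no compound. The other libraries came from cells given 40 µM EGCG, alone or with 15 µM resveratrol, for 24 h, and are used only where named. All cells were 1 line grown in DMEM/F12 with serum. The resveratrol stock was made in DMSO, and the sources used here do not say whether the untreated cells received DMSO, so resveratrol and its solvent cannot be told apart. Messenger RNA was sequenced as stranded, paired-end libraries and counted per gene. The labels number the replicates of each group from 1 to 6 without naming separate cultures, so p-values measure the spread between these samples, which may be technical.

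Resveratrol is a stilbene polyphenol found in grapes and berries. It is studied for effects on stress responses, on cell division and on the aryl hydrocarbon receptor (AHR), a transcription factor that switches on detoxifying enzymes when a ligand binds it. Cells handle polyphenols much as they handle drugs, with oxidizing enzymes, enzymes that attach sulfate or glucuronic acid, and pumps that export the products. Squamous carcinoma cells keep parts of the program of stratified epithelium, including basal keratins and the precursors of the cornified envelope.

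The libraries held 8542934 to 9737422 counts in the untreated group and 7976207 to 10602350 with resveratrol, and these totals did not differ beyond their spread (two-sided exact permutation test, n = 6 per group, p = 0.690, which is 0.690 after Benjamini-Hochberg adjustment over 4 measures). All 14 markers of squamous cells were expressed above the filter, with 115194 to 133162 counts summed per library in the untreated group and 99128 to 125501 with resveratrol, 3 of them higher, 6 lower and 5 not past the test. No leukocyte marker of 8 passed the filter, with 1 to 6 counts summed in each untreated and 2 to 6 in each resveratrol library. Of 6 endothelial markers 1 passed (15 to 23 and 13 to 21 counts), and of 7 fibroblast markers 2 passed, with PDGFRA, PDGFRB, COL3A1, DCN and LUM under the filter and nearly all of the 1084 to 1673 counts from COL1A1. Replicates 1 to 3 differed from replicates 4 to 6 in both groups: mitochondrial transcripts took 0.249% to 0.280% of counts in the former and 0.491% to 0.775% in the latter. The replicate set was therefore a term in the model, and the change within each set is given where it matters. In a principal component analysis of the 12 libraries, the first component held 48.9% of the variance and separated the treatments, and the second held 7.73% and separated the sets.

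Resveratrol changed more than 1 gene in 2, mostly by a small amount. Differentially expressed genes (DEGs) were those past both limits of the methods in edgeR's quasi-likelihood test, p under 0.05 and p under 0.1 after Benjamini-Hochberg adjustment. Of 15476 genes tested, 8972 were DEGs, which is 58% of the tested genes. Of these, 4549 (29.4%) were upregulated and 4423 (28.6%) downregulated, and their medians on the log2 scale were 0.35 and -0.27. Counts of members of any gene list are to be read beside these 2 shares of all tested genes. The split depended on the scaling: with library size alone in place of TMM, 6238 were higher and 2921 lower, and the median change over all genes shifted by 0.09 on the log2 scale. With a 1.5-fold cut-off there were 1517 DEGs (9.8%), 1130 up (7.3%) and 387 down (2.5%), and 495 when the test itself was set against a 1.5-fold change. A 2.0-fold cut-off left 334 DEGs (2.16%), 287 up (1.85%) and 47 down (0.304%). For 4810 genes (31.1%) the 6 resveratrol libraries lay wholly above (2367, 15.3%) or wholly below (2443, 15.8%) the 6 untreated libraries. That held for 1039 of the 1517 and 271 of the 334. Upregulated genes outnumbered downregulated ones beyond 1.5-fold in each of these settings, with 1474 against 239 when library size alone was used and 403 against 92 when the test was set against 1.5-fold.

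**Figure D1:**
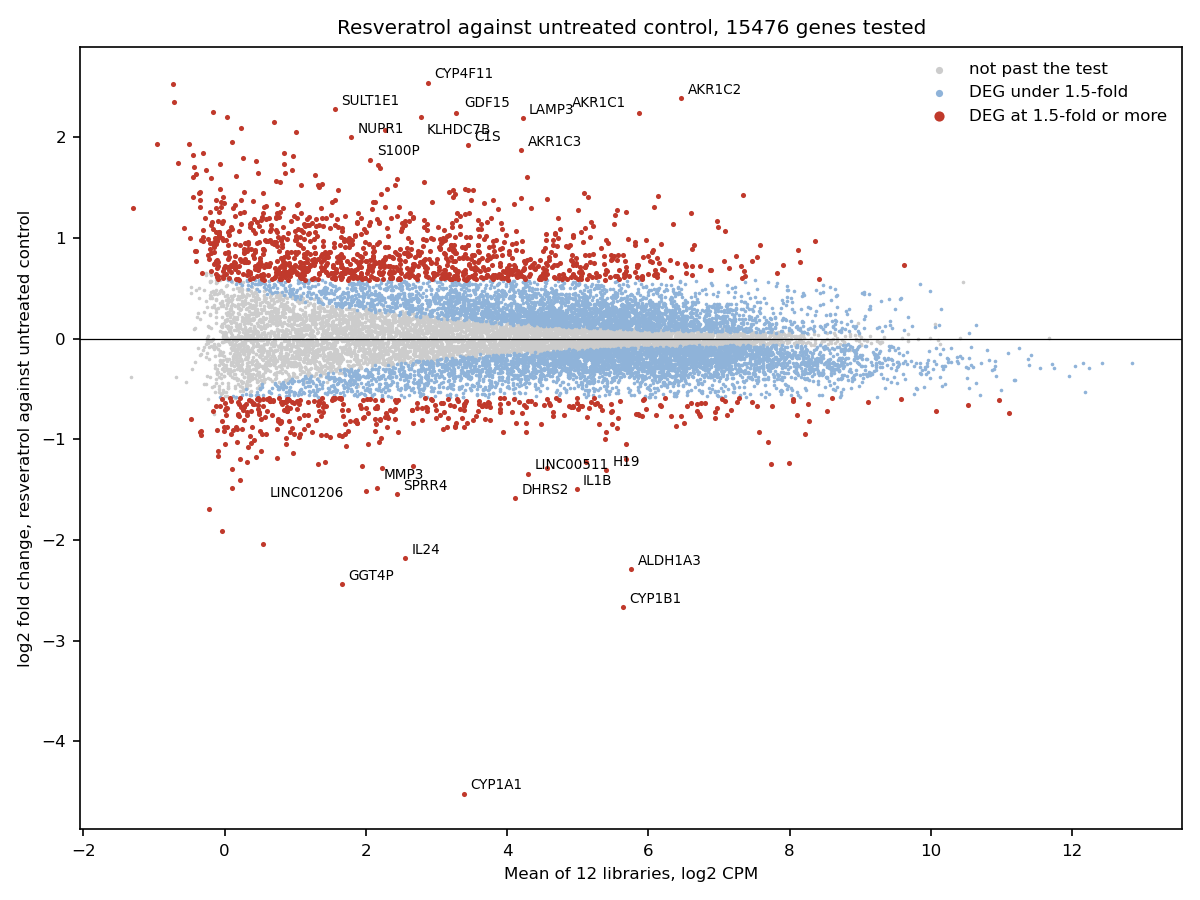
The log2 fold change (resveratrol against untreated control, y axis) of 15476 genes is plotted against their mean level in 12 libraries (log2 CPM, x axis), with grey points not past the test, blue points DEGs under 1.5-fold and red points DEGs at 1.5-fold or more. CYP1A1 stands alone at the bottom with -4.52, while the largest rises reach 2.54 and the most abundant genes, at the right, lie mostly just below 0.

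The largest fall was that of CYP1A1, the cytochrome P450 that oxidizes polycyclic hydrocarbons and the classic AHR target (ENSG00000140465, chr15:74719542-74725536, minus strand, GRCh38). Its normalized count, lowest, median and highest, was 152, 175 and 193 in the untreated libraries and 3.93, 7.68 and 11.3 with resveratrol, a 22.9-fold fall (log2 fold change -4.52 ± 0.140 SE, adjusted p = 8.20e-28, edgeR). CYP1B1, which oxidizes estrogens and hydrocarbons (ENSG00000138061, chr2:38066973-38109902, minus strand, GRCh38), fell from 707, 743 and 782 to 102, 114 and 136, a 6.33-fold change with adjusted p = 7.30e-33 by edgeR. No resveratrol library of either gene came near an untreated one, and the fall was as large in replicates 1 to 3 (-4.45 and -2.74 on the log2 scale) as in replicates 4 to 6 (-4.59 and -2.58). Per gene length CYP1B1 was the higher of the pair in untreated cells, with a mean FPKM of 14.2 against 5.96, and both were low with resveratrol (2.25 and 0.258). ALDH1A3, which makes retinoic acid and is also on the AHR list (ENSG00000184254, chr15:100877714-100916626, plus strand, GRCh38), fell from 745, 769.9 and 823 to 143, 160.1 and 175 normalized counts, or 4.89-fold. The receptor itself moved the other way. AHR rose from 368, 404 and 459.7 to 579, 597 and 635, 1.5-fold, without overlap, and its partner ARNT rose 1.16-fold (224, 277 and 296 against 274, 315 and 342), with overlap. Of 13 genes on the AHR list 10 were tested, 3 upregulated (the third was NQO1, shared with the NRF2 list), 4 downregulated and 3 not past the test, with a median log2 change of -0.06 beside 0.00 over all genes tested. Among all tested genes 29.4% were higher and 28.6% lower. AHRR, CYP1A2 and UGT1A6 were under the filter.

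Among the other large falls were inflammatory and squamous genes and long noncoding RNAs. IL24, a cytokine of the IL-10 family, fell from 70.3, 83.7 and 96.8 to 12.8, 17.9 and 25.7 normalized counts (log2 fold change -2.18 ± 0.131 SE, adjusted p = 5.50e-18, edgeR), and IL1B, the secreted inflammatory interleukin (ENSG00000125538, chr2:112829751-112836816, minus strand, GRCh38), from 361, 413 and 423 to 132, 139.6 and 159 (-1.50 ± 0.0588 SE, adjusted p = 3.80e-24, edgeR). MMP3, a matrix metalloproteinase, went from 46.5, 58.1 and 64.5 to 16.2, 19.4 and 25.3, and SPRR4, a cornified envelope precursor, from 55.7, 68.1 and 81.7 to 20.1, 24.1 and 28.3. DHRS2, a short-chain dehydrogenase, fell 3.0-fold, from 225 ± 5.57 to 74.2 ± 7.39 normalized counts (mean ± SD, n = 6). The noncoding RNAs H19, which is imprinted, LINC00511 and LINC01206 fell 2.47-, 2.53- and 2.85-fold. GGT4P, a pseudogene of the gamma-glutamyltransferase family, fell 5.4-fold, from a mean of 46.3 to 8.59, and its reads may be shared with near-identical copies.

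The largest rises were led by enzymes of lipid, steroid and xenobiotic metabolism. CYP4F11, a fatty acid hydroxylase (ENSG00000171903, chr19:15912367-15934867, minus strand, GRCh38), rose from 14.3, 18.9 and 23.7 to 95.9, 111 and 114 normalized counts, or 5.83-fold (log2 fold change 2.54 ± 0.132 SE, adjusted p = 5.60e-20, edgeR). AKR1C2, an aldo-keto reductase that reduces steroids and reactive carbonyls (ENSG00000151632, chr10:4987775-5018031, minus strand, GRCh38), rose from 202, 253 and 267 to 1178, 1300.0 and 1364, 5.23-fold (2.39 ± 0.0663 SE, adjusted p = 1.90e-29, edgeR). Its neighbours AKR1C1 and AKR1C3 rose 4.73- and 3.67-fold. The 3 genes are close paralogs, so reads could have been divided among them, and each had no overlap between groups. SULT1E1, the estrogen sulfotransferase, rose from 2.85, 8.85 and 14.3 to 36.1, 41.2 and 50.6 counts, 4.86-fold.

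Genes of several kinds made up the rest. GDF15, a stress-induced cytokine of the TGF-beta superfamily (ENSG00000130513, chr19:18374731-18389176, plus strand, GRCh38), rose from 22.4, 26.7 and 37.8 to 131, 139 and 148, 4.72-fold (log2 fold change 2.24 ± 0.127 SE, adjusted p = 7.90e-19, edgeR). LAMP3, a lysosomal membrane glycoprotein (ENSG00000078081, chr3:183122215-183163839, minus strand, GRCh38), rose from 50.3, 58.5 and 62.8 to 248, 259 and 295, 4.57-fold. NUPR1, a small stress-induced nuclear protein, rose 4.0-fold (adjusted p = 2.70e-14, edgeR), and C1S, a protease of the complement cascade, 3.78-fold. S100P, a calcium-binding protein, rose 3.43-fold and KLHDC7B, a kelch-domain protein, 4.6-fold. The only rise among the 12 largest without a gene symbol was a long noncoding RNA, ENSG00000272405, from 10.1, 16 and 24.7 to 58.4, 63.8 and 86.1. The rule that named the 12 largest rises and falls admitted only genes whose groups of libraries do not overlap.

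**Figure D2:**
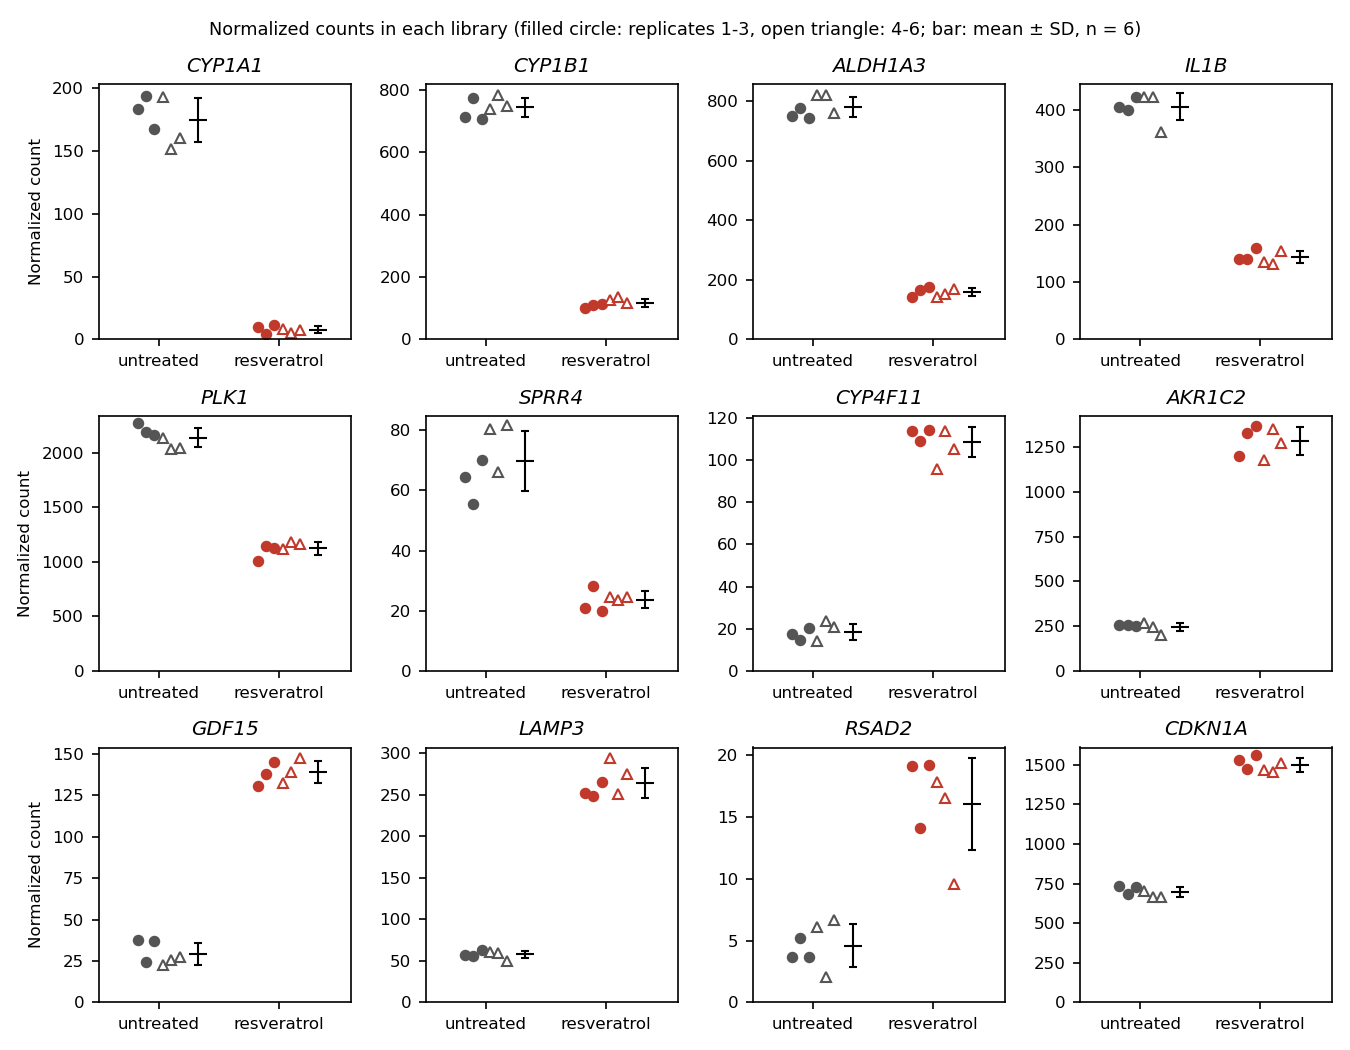
Normalized counts (y axis, starting at 0) of 12 genes are shown for each of 6 untreated (grey) and 6 resveratrol (red) libraries, with replicates 1 to 3 as filled circles, replicates 4 to 6 as open triangles and the mean ± SD beside them. The groups separate in every panel, and the spread within a group is small against the difference except in RSAD2, whose counts are lowest.

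Most genes on the list of NRF2 targets and regulators were higher. NRF2 is the transcription factor that KEAP1 holds in check until electrophiles or oxidants modify KEAP1, and its targets make glutathione, recycle thioredoxin and supply NADPH. Of 34 tested (of 35 listed), 28 were upregulated (82.4%), 2 downregulated and 4 not past the test. Among all tested genes 29.4% were higher. In this list 15 were up by 1.5-fold, and the median log2 fold change was 0.48. Whether NRF2 caused these changes was not tested. NFE2L2, the gene of NRF2 itself, was at 1914, 2007 and 2057 untreated and 1956, 1984 and 2093 with resveratrol (log2 fold change 0.00 ± 0.0259, adjusted p = 0.986), with overlapping groups. KEAP1 rose 1.12-fold. NQO1, a quinone reductase, rose from 2013, 2131 and 2248 to 2744, 2922 and 3046, 1.37-fold, and the AKR1C genes above are also on this list. Thioredoxin (TXN) and transketolase (TKT) were the targets that fell, by 0.15 and 0.12 on the log2 scale, and with library size alone the fall of TKT did not pass the test.

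Genes that conjugate and export polyphenols rose more often than they fell. Of 15 tested (of 24 listed), 9 rose (60%), 1 fell and 5 were not past the test, with a median of 0.14. Among all tested genes 29.4% were higher. With replicates 1 to 3 alone 7 rose and 1 fell, and with replicates 4 to 6 alone 6 rose and 2 fell. SULT1E1 led the rises. ABCC3, an exporter of conjugates, rose from 368, 412 and 455 to 700.1, 748 and 796 (1.84-fold), while ABCC4, an exporter of the same family, fell from 289, 315 and 324 to 176, 198 and 211 (1.59-fold). UGT1A3 was not analysed here.

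Interferon-stimulated genes had the highest median of all lists with 3 or more tested members. These genes are normally switched on by interferon signalling through interferon-stimulated response elements (ISREs) in their promoters, and many of their products block viral replication. Of 38 tested (of 42 listed), 37 were upregulated and 1 downregulated, with 26 up by 1.5-fold and a median log2 fold change of 0.76. MX2, an antiviral GTPase, rose from 2.85, 4.15 and 10.2 to 14.4, 23.3 and 31.5 normalized counts (log2 fold change 2.15 ± 0.268 SE, adjusted p = 6.00e-09, edgeR). RSAD2, the antiviral enzyme viperin (ENSG00000134321, chr2:6865557-6898239, plus strand, GRCh38), rose from 2.06, 4.47 and 6.65 to 9.56, 17.2 and 19.2 and IFI44L from 2.06, 7.88 and 11.6 to 20.1, 22.6 and 30.7. The levels of these 3 genes were low in both groups, and the groups did not overlap. IRF9, a transcription factor that binds ISREs, went from 7.38, 12.4 and 19.4 to 16.6, 21.5 and 26.7 with overlapping groups (1.66-fold, adjusted p = 0.00466, edgeR). EPSTI1 was the member that fell, by 0.19, and did not pass the test with library size alone. Replicates 1 to 3 gave a median of 0.79 and replicates 4 to 6 one of 0.71.

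The 250 bases before the RSAD2 start are printed because they hold an ISRE and RSAD2 was the most changed of the named members with one in its window. Promoter sequences are RefSeq's on GRCh38.p14, and the motif is in capitals. The window is chr2:6877527-6877776, plus strand, and the motif begins at base -145 from the start.
RSAD2: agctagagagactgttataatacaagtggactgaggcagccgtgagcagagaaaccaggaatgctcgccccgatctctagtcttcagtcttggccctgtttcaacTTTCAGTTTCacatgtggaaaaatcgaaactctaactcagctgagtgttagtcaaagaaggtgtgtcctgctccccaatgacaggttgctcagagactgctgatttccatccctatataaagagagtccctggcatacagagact
The motif, TTTC followed by any 2 bases and TTTC again, was searched on both strands of windows from 250 bases before to 50 after each start. It was found in 26 of 39 windows of interferon-stimulated genes (66.7%) and in 3.57% of all 35116 windows in the table. Among tested genes 2.8% of windows held it, among those upregulated by 1.5-fold 4.41%, and among those downregulated by 1.5-fold 2.14%. A window counted once however many matches it held, matches of different motifs may overlap, and a match is a description of letters only.

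Antigen presentation by MHC class I moved the same way but less. Of 18 tested, 15 rose, none fell and 3 were not past the test, with a median of 0.18 and no member at 1.5-fold. B2M, the light chain of the MHC class I molecule, rose from 3009.6, 3235 and 3435 to 3541, 3640.2 and 3838 (1.13-fold). ERAP2, which trims peptides, rose 1.49-fold without overlap. NLRC5, the transactivator of class I genes, rose 1.33-fold with overlapping groups (adjusted p = 0.033, edgeR). Its call was lost without untreated replicate 1, without resveratrol replicate 4 and in replicates 1 to 3 alone.

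Most targets of ATF4 rose, and most cytosolic heat shock genes fell. ATF4 is translated when eIF2-alpha kinases sense amino acid shortage or endoplasmic reticulum stress, and it induces amino acid synthesis and transport. Of 33 tested, 27 were upregulated, 3 downregulated and 3 not past the test, with a median of 0.37. ATF4 mRNA itself was 5234, 5319 and 5560.0 untreated and 5367, 5658 and 5772 with resveratrol, a rise of 1.06-fold with overlap. CHAC1, which degrades glutathione (ENSG00000128965, chr15:40952962-40956512, plus strand, GRCh38), rose from 449.7, 502 and 517 to 1138, 1180.1 and 1204 (2.38-fold), ATF3 from 108, 114 and 119 to 263, 299 and 315 (2.61-fold) and DDIT3, the transcription factor CHOP, from 258, 271 and 307 to 436, 481 and 543 (1.77-fold). None of these 3 overlapped. The 3 that fell included both chains of the large neutral amino acid transporter. SLC7A5 fell from 45745, 47394 and 49952 to 31059, 33539.6 and 34155 normalized counts (1.44-fold) and SLC3A2 fell 1.31-fold.

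The CHAC1 window is printed with the CARE motif (TGATGCAA, here on the opposite strand), the composite element that ATF4 binds with C/EBP partners. The window is chr15:40953221-40953470, plus strand, and the motif begins at base -209.
CHAC1: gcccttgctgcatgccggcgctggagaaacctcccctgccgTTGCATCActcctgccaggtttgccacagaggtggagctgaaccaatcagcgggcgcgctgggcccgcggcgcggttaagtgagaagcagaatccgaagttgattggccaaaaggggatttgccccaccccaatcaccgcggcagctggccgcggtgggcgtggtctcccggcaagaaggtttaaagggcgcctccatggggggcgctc
This motif was in 5 of 42 windows of ATF4 targets (11.9%) and in 0.866% of all windows.

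The unfolded protein response was split, with 9 of 22 genes up (40.9%), 9 down (40.9%) and 4 not past the test (median -0.05). Over all tested genes 29.4% were higher and 28.6% lower. The split depended on the scaling: with library size alone 10 of the 22 were up and 2 down (median 0.04). XBP1, a transcription factor of this response, rose 1.34-fold, DNAJB9 1.96-fold and HERPUD1, a factor of protein degradation, 1.46-fold. HSPA5, the main chaperone of the endoplasmic reticulum, rose 1.1-fold and HSP90B1 fell 1.19-fold. Cytosolic heat shock genes fell together: 15 of 18 were lower, 1 higher and 2 not past the test, with a median of -0.30. HSP90AB1 fell from 20442, 20915 and 21421 to 13369, 13631 and 14005 (1.53-fold) and HSPA8, the constitutive HSP70, from 16229, 17243 and 17577 to 11331, 11523 and 11941 (1.48-fold). CHORDC1, a co-chaperone of HSP90, fell 1.55-fold. HSPA1A, the inducible HSP70 whose reads may be shared with HSPA1B, fell 1.2-fold. The regulator HSF1 fell by 0.07 on the log2 scale with overlapping groups, and with library size alone its estimate was 0.02. Of 8 tested metallothioneins and zinc exporters (of 13), 4 fell, none rose and 4 were not past the test. MT1E, a metal-binding protein of a family of close paralogs, fell from 937, 955 and 1101 to 609, 625 and 645 (1.59-fold) and MT1X 1.35-fold.

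Apoptosis regulators were mixed, with 16 of 31 tested up (51.6%), 7 down (22.6%) and 8 not past the test (median 0.20). Over all tested genes 29.4% were higher and 28.6% lower. BBC3, the BH3-only protein PUMA, rose from 26.3, 37.4 and 40.5 to 53.4, 62.2 and 69.8 (1.72-fold), and HRK, a BH3-only protein, 1.94-fold with overlapping groups at low counts (4.75, 7.84 and 11.2 against 9.6, 16.9 and 22). On the protective side BIRC3, an inhibitor of apoptosis, rose 1.84-fold. MCL1 fell by 0.08 on the log2 scale (adjusted p = 0.0461, edgeR), an estimate that became 0.01 with library size alone. Of 15 G1 cyclins and inhibitors 7 rose (46.7%), 2 fell (13.3%) and 6 were not past the test. CDKN1A, the p21 inhibitor of cyclin-dependent kinases (ENSG00000124762, chr6:36676460-36687337, plus strand, GRCh38), rose from 664, 694 and 737 to 1452, 1489 and 1564 (2.15-fold, log2 fold change 1.11 ± 0.0339 SE, adjusted p = 6.60e-28, edgeR). CDKN2B, the p15 inhibitor, rose from 186, 201 and 226 to 423, 441 and 462 (log2 fold change 1.12 ± 0.0489 SE, adjusted p = 1.70e-22, edgeR), RB1 rose by 0.19 on the log2 scale and CDK4 fell 1.19-fold. CCND1, cyclin D1, rose 1.04-fold, with overlap (adjusted p = 0.0707), and this call was lost with DESeq2.

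Mitosis genes fell almost as one. Of 43 tested, 37 were downregulated, none upregulated and 6 not past the test, with a median log2 fold change of -0.35. In 31 of them all 6 resveratrol libraries lay below all untreated ones, where 15.8% of all tested genes did so. PLK1, the polo-like kinase that drives entry into mitosis (ENSG00000166851, chr16:23677656-23690367, plus strand, GRCh38), fell from 2036, 2150.3 and 2274 to 1012, 1138 and 1179 normalized counts (1.9-fold, log2 fold change -0.92 ± 0.0353 SE, adjusted p = 1.40e-24, edgeR). CDC20, the activator of the anaphase-promoting complex, fell from 2785, 3015 and 3242 to 1646, 1772 and 1849 (1.69-fold) and KIF20A, a kinesin of cytokinesis, 1.66-fold. FOXM1, a transcription factor of these genes, fell by 0.07 with overlapping groups, and its estimate was 0.02 with library size alone. Replicates 1 to 3 gave a median of -0.34 and replicates 4 to 6 one of -0.36.

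The PLK1 window is printed for the cell cycle homology region (CHR, TTTGAA), which the DREAM and MuvB complexes bind in G2 and M phase genes. The window is chr16:23678639-23678888, plus strand, and the motif begins at base -29.
PLK1: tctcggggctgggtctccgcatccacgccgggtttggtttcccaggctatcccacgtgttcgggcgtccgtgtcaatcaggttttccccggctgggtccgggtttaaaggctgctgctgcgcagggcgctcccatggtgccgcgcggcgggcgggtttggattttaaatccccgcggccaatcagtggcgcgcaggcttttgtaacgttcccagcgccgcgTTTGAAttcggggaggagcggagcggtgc
The CHR letters were in 30 of 47 windows of mitosis genes (63.8%), in 15.2% of all windows and in 10.5% of those of tested genes. They were in 13.2% and 9.52% of windows of genes down and up by 1.5-fold.

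DNA replication genes moved in both directions. Of 41 tested, 13 rose (31.7%), 17 fell (41.5%) and 11 were not past the test, with a median of -0.04. Among all tested genes 29.4% were higher and 28.6% lower. In 13 of the 41 all 6 resveratrol libraries lay below all untreated ones, and in 5 they lay above. Over all tested genes those shares were 15.8% and 15.3%. With library size alone 19 of the 41 rose and 13 fell. GINS2, a subunit of the replicative helicase (ENSG00000131153, chr16:85676198-85690073, minus strand, GRCh38), fell from 754, 857 and 929 to 535, 571 and 622 (1.46-fold) and MCM5, a helicase subunit, 1.37-fold. PCNA, the sliding clamp, fell 1.22-fold. In homologous recombination and the Fanconi pathway 9 of 28 rose (32.1%), near the 29.4% of all tested genes that were higher. In this list 1 fell and 18 were not past the test. With library size alone 15 of the 28 rose and none fell. BRCA1 was among the rises at 1.25-fold (846, 917 and 1011 against 1113, 1143 and 1192). The GINS2 window is printed for its E2F motif (TTTCCCGC, here on the opposite strand), which was in 11 of 45 windows of replication genes (24.4%) and in 1.63% of all windows. The window is chr16:85688955-85689204, minus strand, and the motif begins at base -31.
GINS2: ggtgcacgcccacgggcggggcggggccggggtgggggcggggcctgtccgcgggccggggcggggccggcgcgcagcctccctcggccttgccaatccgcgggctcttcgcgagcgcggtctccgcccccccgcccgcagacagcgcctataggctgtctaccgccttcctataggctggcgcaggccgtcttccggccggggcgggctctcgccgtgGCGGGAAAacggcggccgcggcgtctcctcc
No CHR match was found in the printed GINS2 window.

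Genes of ribosomal proteins and of ribosome biogenesis were lower. All 50 tested genes of cytosolic ribosomal proteins were DEGs in the downward direction, with a median of -0.26, where 28.6% of all tested genes were lower. RPL3 fell from 8490.4, 8867 and 9341 to 6729, 6979 and 7190.0 (1.27-fold), RPL34 1.35-fold and RPS6 1.21-fold. Ribosome biogenesis went with them: 28 of 29 genes fell and 1 was not past the test (median -0.35). With library size alone 46 of the 50 and 26 of the 29 were lower. NPM1, the nucleolar chaperone, fell from 11182, 11674 and 12061 to 6633, 7061 and 7344 (1.64-fold), FBL, the rRNA methyltransferase fibrillarin, 1.5-fold, and NCL, nucleolin, 1.39-fold. MYC, which activates many of these genes, fell by only 0.09 on the log2 scale (3143, 3257 and 3547 against 3050.0, 3089 and 3123), without overlap, and did not pass the test with library size alone. These genes are among the most abundant of the cell. The 100 genes with most counts, taken in each library separately, held 17.7% to 17.8% of counts in untreated and 15.8% to 16.1% in resveratrol libraries. That difference had p = 0.00216 (two-sided exact permutation test, n = 6 per group), the smallest that 6 against 6 can give. It was 0.00866 after adjustment over 4 measures. Of the 100 genes with the highest mean level over the 12 libraries, 84 were lower and 8 higher.

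Mitochondrial genes gave no common change. Of the 13 mRNAs encoded in mitochondria 2 rose, 4 fell and 7 were not past the test. MT-CO1 ranged from 4913 to 15782 in untreated and from 5330.4 to 15833 in resveratrol libraries, with replicates 4 to 6 above replicates 1 to 3 in both groups, and MT-ND1 had a log2 fold change of 0.16 ± 0.0919 (adjusted p = 0.141). Nuclear genes of mitochondrial biogenesis, however, were lower in 11 of 13 tested and higher in none, with a median of -0.23. NRF1, the nuclear respiratory factor, fell 1.29-fold and TFAM, which packages mitochondrial DNA, 1.1-fold. PPARGC1B, a coactivator, fell 1.17-fold, and PPARGC1A was under the filter. With library size alone 6 of the 13 were lower and 1 higher, and TFAM and PPARGC1B did not pass the test. Among 16 tested sirtuins and NAD enzymes 7 rose (43.75%), 3 fell (18.75%) and 6 were not past the test. Over all tested genes those shares were 29.4% and 28.6%. With library size alone 10 of the 16 rose and 1 fell. SIRT1, the nuclear deacetylase often linked to resveratrol, rose from 265, 281 and 307 to 311, 339.7 and 362 (1.2-fold) and SIRT2 1.37-fold. NMNAT1, which makes NAD in the nucleus, rose 1.77-fold and CD38, which consumes NAD, fell 1.3-fold.

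**Figure D3:**
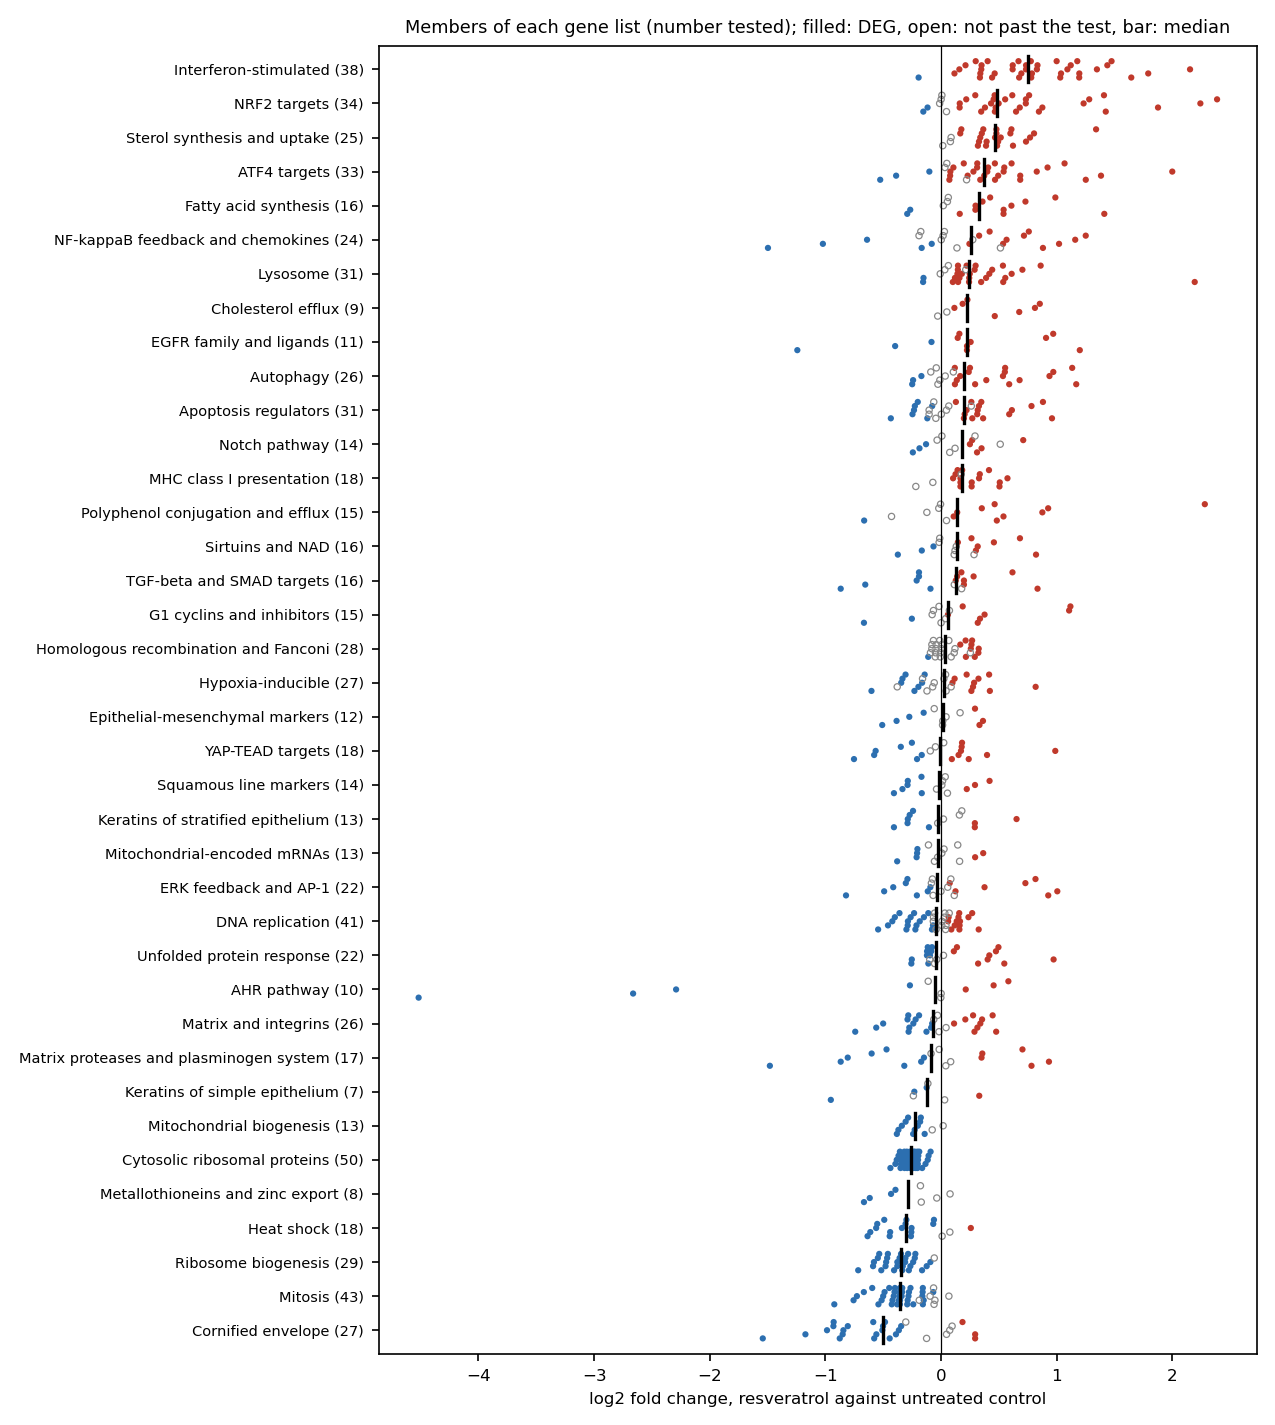
Each point is the log2 fold change (resveratrol against untreated control, x axis) of a member of a gene list (rows, with the number tested), filled when a DEG (red up, blue down) and open when not, and the bar is the median. Interferon-stimulated genes have the highest median (0.76) and cornified envelope genes the lowest (-0.50), and the ribosomal proteins lie in a narrow band below 0.

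Sterol synthesis and uptake was higher in 22 of 25 genes, lower in none and not past the test in 3, with a median of 0.47. SREBP-2, the gene product of SREBF2, induces this pathway when cell sterols are low. SREBF2 rose from 1872, 1999 and 2030.1 to 2436, 2560.2 and 2639 (1.29-fold). TM7SF2, a sterol reductase, rose 2.53-fold and MVD, of the mevalonate pathway, 1.75-fold. Genes of cholesterol efflux, which respond to high sterols through LXR, rose too: 7 of 9 were higher, none lower and 2 not past the test. NR1H3, the LXR-alpha gene, rose 1.6-fold, MYLIP, which degrades the LDL receptor, 1.81-fold and APOE 1.76-fold. ABCA1, the efflux pump, rose by 0.19 on the log2 scale, with overlap.

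Fatty acid synthesis was higher in 11 of 16 tested genes, lower in 2 and not past the test in 3 (median 0.33). ACSS2, which makes acetyl-CoA from acetate, rose from 307, 334 and 365 to 858, 886 and 910.3 (2.66-fold). FADS2 and FADS1, the desaturases of polyunsaturated fatty acids, rose 1.98- and 1.66-fold. FASN, the fatty acid synthase, rose 1.23-fold with overlapping groups, and SREBF1 was at 2301, 2471 and 2545 and 2417, 2569 and 2639 (log2 fold change 0.06 ± 0.0357, adjusted p = 0.139).

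Most lysosome and autophagy genes rose. TFEB is the transcription factor of both, and it went from 39.6, 48.1 and 56 to 69.7, 79.3 and 86.1 (1.63-fold). Of 31 tested lysosomal genes 25 were higher, 2 lower and 4 not past the test, with a median of 0.24. LAMP3 led them, NEU1, a sialidase, rose from 377, 407 and 434 to 686, 745 and 778 (1.82-fold), and CD63, a tetraspanin, fell 1.11-fold. Of 26 tested autophagy genes 17 were higher, 3 lower and 6 not past the test. GABARAPL1, which is joined to autophagosome membranes, rose from 631, 670.1 and 691 to 1459.9, 1489.8 and 1569.6 (2.25-fold), and SQSTM1, the cargo receptor p62 (ENSG00000161011, chr5:179806398-179838078, plus strand, GRCh38), from 1804, 1941 and 2000.1 to 3618, 3772 and 3862 (1.96-fold). WIPI1 and the kinase ULK1 rose 2.19- and 1.91-fold. None of these 4 overlapped.

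Hypoxia-inducible genes were split, with 10 of 27 up (37.0%), 8 down (29.6%) and 9 not past the test (median 0.02). Over all tested genes those shares were 29.4% and 28.6%. HIF1A and EPAS1, the 2 HIF alpha subunits, rose 1.21- and 1.76-fold, and VEGFA 1.22-fold. LDHA, which makes lactate, fell from 7731, 7981 and 8088 to 5125, 5191 and 5441 (1.52-fold).

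Inflammatory signalling genes moved in both directions. IL1A fell from 2235, 2416 and 2579 to 1072, 1189 and 1302 normalized counts (2.03-fold) beside the fall of IL1B. CXCL8, the neutrophil chemokine, rose from 41.5, 50.4 and 59.1 to 92, 113 and 162 (2.38-fold) and CCL20 from 2.04, 4.83 and 7.35 to 7.44, 10.8 and 13.4 (2.23-fold), both without overlap. TRAF1, an adaptor of TNF receptors, rose 2.03-fold with overlap. Of 24 tested NF-kappaB targets and chemokines (of 28), 11 rose (45.8%), 5 fell (20.8%) and 8 were not past the test. Over all tested genes those shares were 29.4% and 28.6%. NFKBIA, the inhibitor, was up 1.19-fold and RELB 1.48-fold. SOD2 was not analysed here.

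Growth factor genes moved in both directions. NRG1, a ligand of ERBB3 and ERBB4, fell from 2346, 2596 and 2726 to 1071, 1083 and 1133 (2.37-fold, log2 fold change -1.24 ± 0.0339 SE, adjusted p = 1.20e-29, edgeR), and AREG, a ligand of EGFR, 1.32-fold. HBEGF rose from 147, 176 and 198 to 291, 333 and 347 (1.88-fold) and BTC 2.3-fold at low counts (3.15, 9.22 and 11.2 against 13.8, 19.4 and 22). Among the receptors ERBB3 rose 1.19-fold, and EGFR fell by 0.08 on the log2 scale with overlapping groups, where library size alone gave 0.01. Of 11 tested genes of this family 8 rose (72.7%) and 3 fell (27.3%), where 29.4% of all tested genes were higher and 28.6% lower.

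Of 22 tested targets of ERK and AP-1, 7 rose (31.8%), 8 fell (36.4%) and 7 were not past the test. Over all tested genes those shares were 29.4% and 28.6%. FOSL1, the AP-1 subunit FRA-1, fell from 3285, 3371 and 3629 to 1859, 1929 and 2022 (1.77-fold). JUND, also an AP-1 subunit, rose 1.9-fold and ETV5 2.01-fold. DUSP6, a phosphatase induced by ERK, was at 422, 442 and 474 and 435, 465 and 509.8 (adjusted p = 0.1001, edgeR, not past the test).

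The TGF-beta list held large changes in both directions. Of its 16 genes 8 rose (50%), 6 fell (37.5%) and 2 were not past the test. TGFBI, an abundant matrix protein, fell from 15090.2, 15609.9 and 16288 to 9708, 9832 and 10122 (1.57-fold). ID2, an inhibitor of helix-loop-helix factors, rose 1.78-fold and TGFB1 itself 1.13-fold. YAP-TEAD targets were also divided, with 8 of 18 up (44.4%), 7 down (38.9%) and 3 not past the test. ANKRD1 rose 1.98-fold and CCN1 1.07-fold, while NT5E, the ectonucleotidase CD73, fell 1.68-fold and F3, tissue factor, 1.49-fold. In the Notch pathway 5 of 14 tested rose (35.7%), 3 fell (21.4%) and 6 were not past the test. Library size alone gave 10 and 1. Beside these 3 lists, 29.4% of all tested genes were higher and 28.6% lower. NOTCH3 rose from 183, 224 and 275 to 328, 372 and 406 (1.64-fold), and NOTCH1 and HES1 had adjusted p = 0.333 and 0.106.

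Genes of the cornified envelope, the cross-linked protein shell of the outermost keratinocytes, had a median of -0.50, the lowest of all lists with 3 or more tested members over both replicate sets but not within replicates 1 to 3. Of 27 tested (of 31), 19 fell, 3 rose and 5 were not past the test, 10 of them down by 1.5-fold. SPRR4 fell most. CRCT1 fell from 41.5, 53 and 70.4 to 21.8, 25.8 and 33 (1.98-fold) and RPTN, repetin, from 12, 14.5 and 22.8 to 3.1, 7.06 and 11.9 (2.25-fold). IVL, involucrin, fell 1.27-fold with overlapping groups, by 0.11 on the log2 scale in replicates 1 to 3 and 0.57 in replicates 4 to 6. TGM1, the cross-linking enzyme, and PPL, periplakin, rose by 0.19 and 0.29 on the log2 scale, with overlap. The median of the list within replicates 1 to 3 was -0.23, and within replicates 4 to 6 it was -0.70. In replicates 1 to 3 the median of ribosome biogenesis genes was lower, at -0.37. No single member passed the test of a difference between the sets except A2ML1, described below. Several SPRR and LCE genes are close paralogs whose reads may be shared.

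Keratins fell or rose by gene. KRT5 and KRT14, the basal pair, were among the most abundant mRNAs and each fell 1.22-fold. KRT17 fell from 22167, 22778 and 23762 to 16557, 17329 and 17905 (1.33-fold) and KRT80 rose from 1480.4, 1522 and 1571 to 2254, 2391 and 2534 (1.57-fold). Of 13 tested stratified keratins 3 rose (23.1%), 6 fell (46.2%) and 4 were not past the test. Over all tested genes those shares were 29.4% and 28.6%. In simple epithelium keratins, KRT18 fell 1.17-fold, KRT23 1.94-fold, and KRT8 was at 3616, 3809 and 3852 and 3804, 3834 and 3899 (adjusted p = 0.357). TP63, the master factor of basal cells, had a log2 fold change of -0.04 ± 0.0276 (adjusted p = 0.238, 0.05 with library size alone), and SOX2 fell 1.12-fold (adjusted p = 0.0807), a call lost without the set term.

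Adhesion and matrix genes were divided as well. CDH1, E-cadherin, rose from 3529.8, 3552 and 3633 to 4266, 4340.4 and 4498 (1.23-fold), while VIM, vimentin, and SNAI2, a repressor of E-cadherin, fell 1.42- and 1.31-fold, all without overlap. On the epithelial-mesenchymal list 3 of 12 tested genes rose (25%), 4 fell (33.3%) and 5 were not past the test. Over all tested genes 29.4% were higher and 28.6% lower. Of 26 matrix and integrin genes 9 rose (34.6%), 13 fell (50%) and 4 were not past the test. THBS1, thrombospondin, fell from 22951, 23652 and 25799 to 13909, 14405 and 14667 (1.67-fold) and TNC, tenascin, 1.47-fold. ITGB4, the beta chain of the hemidesmosome's integrin, fell by 0.19 on the log2 scale, and ITGAV rose 1.39-fold. Among 17 tested matrix proteases and plasminogen genes 5 rose (29.4%), 8 fell (47.1%) and 4 were not past the test. MMP14, a membrane-bound protease, rose 1.63-fold and its partner inhibitor TIMP2 from 154, 178 and 204 to 311, 334 and 366 (1.91-fold), and PLAU, urokinase, fell 1.13-fold and MMP1 1.25-fold.

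The response was close in the 2 replicate sets. Of the 8972 DEGs, 8941 changed in the same direction in both, as did 1512 of the 1517 at 1.5-fold and all 334 at 2.0-fold. The DEGs were called on both sets together, so these counts describe them and do not test them. The test of the difference itself called 2 of 15476 genes (0.0129%) in edgeR and 2 in DESeq2, and 705 (4.56%) had an unadjusted p under 0.05 in edgeR and 370 in DESeq2. NACAD changed by -0.47 in replicates 1 to 3 and 0.71 in replicates 4 to 6 on the log2 scale, and A2ML1, a protease inhibitor of the epidermis, by 0.42 and -0.22, both with adjusted p = 0.0837. Both values lay near the limit of 0.1, and the number of calls varied with the library left out. It was 0 when resveratrol replicate 2, 3 or 4 or untreated replicate 1, 2, 4 or 6 was left out. It was 1 without resveratrol or untreated replicate 5, 4 without untreated replicate 3 and 5 without resveratrol replicate 1. The cause was not tested.

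**Figure D4:**
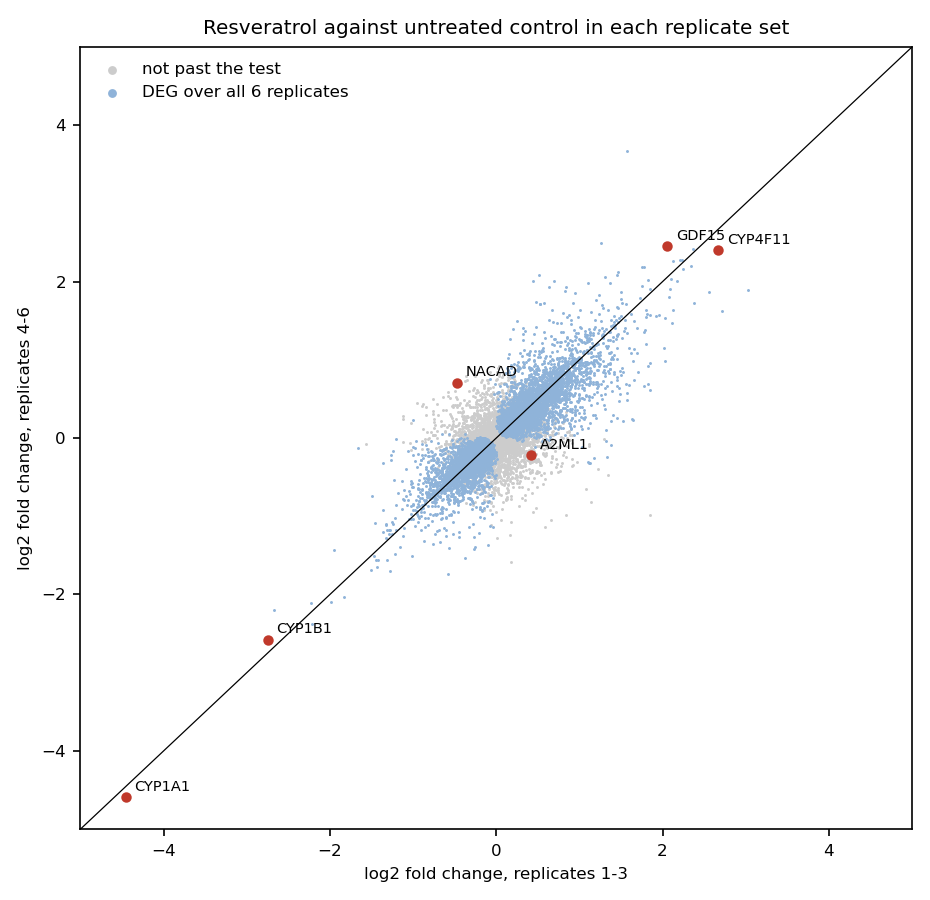
The log2 fold change in replicates 4 to 6 (y axis) is plotted against that in replicates 1 to 3 (x axis) for 15476 genes, DEGs in blue and others in grey, with the line of equal change. Genes with large changes such as CYP1A1, CYP1B1 and GDF15 lie near the line, and NACAD and A2ML1 lie in opposite corners off it.

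Resveratrol was also set beside EGCG and the combination of both, in comparisons that share the resveratrol or the untreated libraries. EGCG, the main catechin of green tea, was compared directly with resveratrol, which leaves out the untreated libraries, and 8674 genes (56%) differed. The 24 genes with the largest changes were chosen on these same resveratrol libraries, so their differences from EGCG, with adjusted p from 5.19e-29 (AKR1C2) to 8.77e-07 (MMP3), are given as a description. Against the same untreated libraries CYP1A1 changed by -0.46 with EGCG, -4.52 with resveratrol and -4.28 with both on the log2 scale, CYP1B1 by -0.40, -2.66 and -2.77, and ALDH1A3 by -0.45, -2.29 and -2.29. EGCG thus had a fall in these 3 genes too (adjusted p = 2.56e-04, 7.22e-08 and 2.24e-10), smaller than that of resveratrol. CYP4F11 and the AKR1C genes were near 0 with EGCG (0.20 and -0.02 to 0.08) and none passed the test.

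Adding EGCG to resveratrol changed 1408 genes (9.1%) against resveratrol alone. The combination was above resveratrol for GDF15 by 0.39 (adjusted p = 0.00382), KLHDC7B by 0.43 and LAMP3 by 0.34 on the log2 scale. PLK1, CDC20 and KIF20A were lower still with both agents, by -0.36, -0.29 and -0.42. IL1B lay 0.36 higher with the combination than with resveratrol, so its fall was smaller there. For AKR1C2, CYP1B1 and ALDH1A3 the difference was -0.04, -0.11 and 0.00 and did not pass the test. ID2 went down with EGCG (-0.68), up with resveratrol (0.83) and up less with both (0.29). TRAF1 changed by 0.83, 1.02 and 2.26, and the combination was above resveratrol by 1.24 (adjusted p = 4.77e-09).

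**Figure D5:**
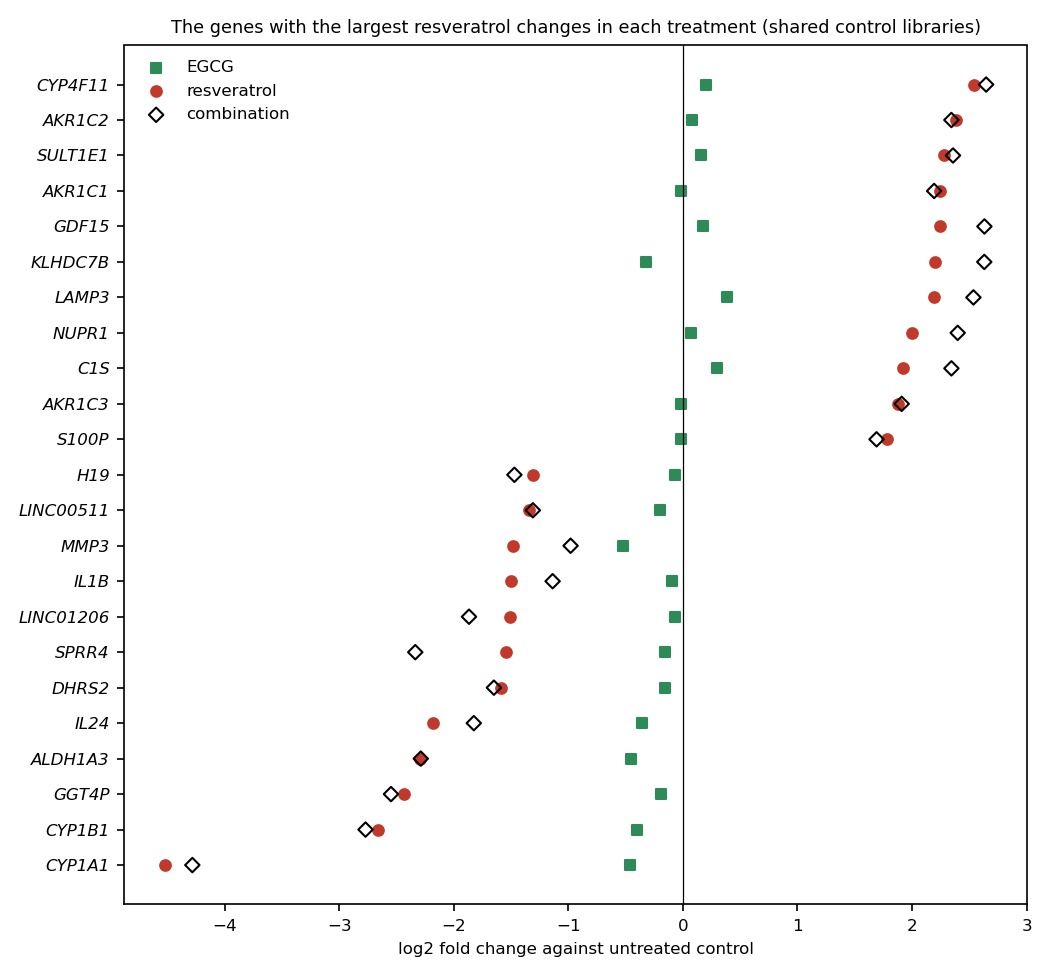
The log2 fold change against the same 6 untreated libraries (x axis) is shown for 23 genes with the largest resveratrol changes and a symbol (rows), with EGCG as green squares, resveratrol as red circles and the combination as open diamonds. The circles and diamonds lie close together for genes such as AKR1C2 and CYP1B1. They lie further apart for others such as GDF15, KLHDC7B and IL1B. The squares lie between -0.52 and 0.38.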

How the data were processed

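RNA-seq of 686Tu cells was analysed in 12 libraries (6 untreated, 6 resveratrol), within a fit of all 24. The authors extracted total RNA, made TruSeq stranded mRNA libraries and, per the submitters' processing notes, used bcl2fastq 2.17.1.14, Trimmomatic 0.36, FastQC 0.11.5, HISAT2 2.0.4 with GRCh38, SAMtools 1.3.1 and DESeq2 1.20.0. The counting program, annotation release, strand setting and treatment of reads matching several genes are not given in the sources used here, so counts of paralogs, pseudogenes and overlapping genes are uncertain. The authors deposited raw counts per gene, without normalization or pooling. The normalized counts that the authors deposited, a signal per gene, were checked to equal the raw counts divided by DESeq2's median-of-ratios size factors. The FPKM values deposited by the authors were used only to compare levels between genes.

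Library totals were 7976207 to 10602350 counts, which limits the precision of genes with few counts. Of 60617 genes, 33693 had a count and 15476 passed filterByExpr. The model was edgeR 4.0.16's, run in R 4.3.3 (TMM, quasi-likelihood test, treatment and replicate set as terms), with a biological coefficient of variation of 4.06%. DEGs had an adjusted p under 0.1 and p under 0.05, the limits of the methods. Each SE is the log2 fold change divided by the root of F. On simulated counts of 15310 genes for this comparison, with 200 changed, edgeR called 90 of 100 changed 1.5-fold and 98 of 100 changed 2.0-fold. DESeq2 1.42.0 called 89 and 97. Calls among the unchanged genes are not given here. Recovery with 58% of genes changed, the share of DEGs in these libraries, was not tested. Library measures were compared by exact permutation. A median over a list was read beside that over all genes tested, and no list was tested.

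The gene lists, members and replicate sets were chosen with earlier results of these data known. The text names the 12 largest rises and falls among DEGs whose libraries did not overlap and whose mean raw count was at least 20, the leading members of each list with up to 3 rises and 3 falls, and up to 5 genes whose change differed between sets, and some genes that this rule names are not reported here. Gene positions are from GENCODE on GRCh38, and promoters from RefSeq, GRCh38.p14, where 10380 of the 15476 tested genes matched by symbol. The alternatives were no set term, the replicate number as a block, only 12 libraries, DESeq2's test and size factors, library size alone, other filters, an adjusted p under 0.05, a test against 1.5-fold, each set alone and each library left out. Protein-coding genes alone, DESeq2 for the difference between sets, every alternative for the comparisons of resveratrol with EGCG and with the combination, and counts of list members within each set were added after seeing the data.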

Additional observations from a re-analysis of the deposited data

Results flagged for a closer look

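A library was singled out when its gap to the nearest of the other 5 of its group, divided by the whole range, exceeded Dixon's 95% limit for 6 values. Of 350 groups of 6 libraries checked, for the named genes and for 4 library measures, 14 held such a library (4%), where chance gives about 1 in 20. Of these, 9 were untreated and 5 resveratrol libraries, at most 3 from any 1 library.

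In the untreated group the low values were AKR1C2 in replicate 6 (202 normalized counts, the others 244 to 267), CHAC1 in replicate 1 (449.7, the others 495 to 517), HSPA8 in replicate 6 (16229, the others 17071 to 17577), MVD in replicate 5 (399, the others 439 to 456) and NLRC5 in replicate 1 (21.2, the others 29.9 to 34.1). The high untreated values were RPL34 in replicate 3 (2067, the others 1761 to 1844), FADS2 in replicate 2 (339, the others 293 to 309), TRAF1 in replicate 3 (24.0, the others 10.1 to 14.2) and CDH1 in replicate 1 (3633, the others 3529.8 to 3558).

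With resveratrol DHRS2 was low in replicate 5 (59.9, the others 74.4 to 80.1) and PLK1 in replicate 1 (1012, the others 1122 to 1179). NFE2L2 was high in replicate 6 (2093, the others 1956 to 1995), as were KIF20A (843, the others 784 to 802) and LDHA (5441, the others 5125 to 5217).

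For 2 genes the resveratrol change differed between replicates 1 to 3 and 4 to 6 by edgeR's test of the difference. NACAD differed by 1.18 on the log2 scale (set 4 to 6 minus set 1 to 3) and A2ML1 by -0.64, each with adjusted p = 0.0837.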

How the results depend on the processing

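Leaving out each of the 12 libraries in turn gave 8629 to 8808 DEGs (4357 to 4731 higher, 4009 to 4345 lower), 1517 to 1602 at 1.5-fold (1114 to 1219 higher, 383 to 422 lower), 343 to 366 at 2.0-fold, 8395 to 8702 against EGCG, 1035 to 1452 between the combination and resveratrol, and 0 to 5 genes whose change differed between the sets. Library size alone gave 2921 lower DEGs, 239 lower at 1.5-fold and 1 difference between sets. When all genes with a count or more were tested there were 651 lower at 1.5-fold, 870 at 2.0-fold and 19 differences between sets, and a minimum of 10 counts in every library gave 214, 176 and 1. A test against 1.5-fold gave 495 (403 higher, 92 lower), protein-coding genes alone gave 225 lower at 1.5-fold, and an adjusted p under 0.05 gave 0 differences between sets, where 705 genes had p under 0.05 in edgeR and 370 in DESeq2. The combination differed from resveratrol in 816 genes in replicates 1 to 3 and 399 in replicates 4 to 6, each with 3 libraries a group. The causes were not tested.

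Of 3916 values of 171 named genes under the alternatives, 3781 kept direction and call, 79 kept direction but lost the call, 36 gained it and 20 turned sign. The calls of HSF1, CCND1, FOXM1, MCL1 and SOX2 were lost most often, including when single libraries were left out. With library size alone the sign turned for HSF1 (0.020), MCL1 (0.011), FOXM1 (0.020), EGFR (0.0053) and TP63 (0.049). FOXM1 was 0.0011 in replicates 4 to 6. NFE2L2, never called except with library size alone (0.09), was -0.0024 with DESeq2 size factors, -0.0025 with DESeq2, -0.0044 with every gene and -0.012 in replicates 1 to 3, and ranged from -0.013 to 0.021 without single libraries. A2ML1 was -0.22 in replicates 4 to 6, and NACAD -0.47 in replicates 1 to 3 and -0.020 to 0.19 without single libraries. Of 897 medians over lists with 3 or more tested members 797 moved by less than the spread between replicates and 100 by more, and none of those over 0.1 in size turned sign.

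The replicate number as a block gave 9042 DEGs, 4578 higher and 4464 lower, 1517 at 1.5-fold. The main model did not pair libraries by number, since the labels do not say whether a number marks a shared culture. Correlations of same-numbered untreated and resveratrol libraries, after removing group and set means, ran from -0.017 to 0.051. Those of other numbers in the same set ran from -0.073 to 0.051. After removing group means only, the ranges were 0.028 to 0.095 and -0.015 to 0.116. Low correlations cannot show that the numbers are unpaired, so the question was not decided. The block changed the call of SOX2, MT-ND1 and MT-CO1 among the named genes.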

Other observations

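Changes depended on how abundant a gene was. When the tested genes were divided by mean level into 4 groups of 3869, DEGs were 37.4% of the lowest group, 56.1% and 64.1% of the next and 74.3% of the highest, where abundant genes also have more counts to test. In the lowest group 944 DEGs were higher and 502 lower, and in the highest 949 were higher and 1927 lower. Beyond 1.5-fold, 595 of the 1130 upregulated and 203 of the 387 downregulated genes were in the lowest group. Protein-coding genes made up 85.1% of those upregulated and 58.1% of those downregulated by 1.5-fold, against 78.3% of all tested genes, and long noncoding RNAs 9.20% and 14.5%, against 6.19%.

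Pseudogenes took a larger share of the falls than of the rises. Of 2283 tested pseudogenes 889 were downregulated, 20.1% of all downregulated DEGs, and 159 upregulated, 3.5% of all upregulated DEGs, where pseudogenes were 14.8% of all tested genes. Of 413 tested pseudogenes with a ribosomal protein symbol, processed or not, 264 were lower, beside the fall of all 50 ribosomal protein genes. EEF1A1, the translation elongation factor, had the highest mean level with 69029 normalized counts in untreated cells, and its pseudogenes EEF1A1P5 and EEF1A1P6 had 51358 and 42884. All fell by about the same amount, with log2 fold changes of -0.24 for each. How reads that match several copies were counted is not given in the sources used here, so counts of such pseudogenes cannot be told apart from those of their parent genes.

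Other motifs were counted in the same RefSeq windows. The antioxidant response element (TGACNNNGC) was in 32.3% of 31 windows of NRF2 genes and 13.3% of all windows, and in 15.2% and 16.0% of windows of genes up and down by 1.5-fold, against 14.6% of those of tested genes. The E-box TCACGTGA, which TFEB binds, was in 15.6% of 32 lysosomal windows and 0.98% of all windows. It was in 0.881% and 0.356% of windows of genes up and down by 1.5-fold, against 1.71% of those of tested genes. The sterol element TCACNCCAC was in 1 of 23 windows of sterol genes (4.35%) and 1.13% of all, the CCAAT box in 78.3% of sterol windows, 74.5% of mitosis windows and 34.6% of all, and the AHR core TNGCGTG in 5.02% and 7.47% of windows of genes up and down by 1.5-fold against 6.79% of those of tested genes and 5.51% of all. These shares describe letters in windows of fixed length and were not tested.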
